A study of Homo sapiens with 12 samples.

Results

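The names hsa-miR-6726 to hsa-miR-6895 form an annotation series of human hairpins that lie mostly in introns. Every row named in that range, with any arm suffix, was taken from 12 small RNA count tables, which gave 306 of 1971 miRNA names. Of these, 294 of 1854 names were listed for HCT116, 240 of 1611 for HEK293T and 228 for both lines. The rows held 146 5p arms, 158 3p arms and 2 names with no arm suffix (miR-6745 and miR-6844), and they belonged to 161 hairpin names, 145 of them with both arms listed.

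The libraries were made by AQ-seq, a small RNA protocol that reduces ligation bias, from 100 µg of total RNA. The source was either HCT116, which is derived from a human colorectal carcinoma, or HEK293T, derived from human embryonic kidney. Both lines were rescued with DICER, the RNase III enzyme that cuts hairpin precursors to miRNA duplexes, in 1 of 3 forms. The forms were WT, ΔdsRBD, in which the double-stranded RNA-binding domain was deleted (called the deletion below), and AA, whose change the labels do not describe. Each of the 6 groups had 2 libraries, and the labels do not say whether these came from separate cultures, so a p-value here measures spread among these libraries only, which may be technical. How much DICER each rescue made, and whether a rescue was 1 clone, were not given in the sources used here.

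A mirtron is an intron that folds into a hairpin and reaches DICER through splicing and lariat debranching instead of a cut by DROSHA. In a whole-intron mirtron the hairpin ends are the splice sites, so the 5p arm begins at the GU of the donor and the 3p arm ends at the AG of the acceptor. In a 5′-tailed mirtron only the 3′ end of the hairpin is a splice site, and the intron sequence ahead of it has to be removed by nucleases. Acceptor sites are preceded by a pyrimidine tract, so 3p arms from mirtrons are often rich in C and U.

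The hairpins below show these designs, and the arms listed after them are those with the most reads or the largest changes. All sequences are RefSeq entries on GRCh38.p14, written 5′ to 3′, and 266 of the 306 rows matched an entry. In the hairpins, capitals mark the 2 mature arms. MIR6807 (chr19:58550285-58550376, plus strand) is a whole intron of TRIM28, which encodes a transcriptional co-repressor, and MIR6765 (chr14:105150778-105150864, minus strand) is a whole intron of JAG2, which encodes a Notch ligand. MIR6797 (chr19:41869627-41869698, plus strand) is the 3′ end of an intron of RPS19, which encodes a ribosomal protein.
MIR6807: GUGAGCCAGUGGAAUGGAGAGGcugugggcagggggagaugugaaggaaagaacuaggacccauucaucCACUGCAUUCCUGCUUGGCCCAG
MIR6765: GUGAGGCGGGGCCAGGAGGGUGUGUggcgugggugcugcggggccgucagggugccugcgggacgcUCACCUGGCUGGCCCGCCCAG
MIR6797: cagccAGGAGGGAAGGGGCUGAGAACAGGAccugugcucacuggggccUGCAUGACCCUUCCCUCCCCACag

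In the mature arms, capitals mark the seed, bases 2 to 8, through which a miRNA pairs with its targets. The 5p arms of miR-6807, miR-6765 and miR-6789 began with the donor GU, and most of the 3p arms shown ended on the acceptor AG after a run of C and U.
miR-6807-5p: gUGAGCCAguggaauggagagg
miR-6807-3p: cACUGCAUuccugcuuggcccag
miR-6765-5p: gUGAGGCGgggccaggagggugugu
miR-6765-3p: uCACCUGGcuggcccgcccag
miR-6789-5p: gUAGGGGCgucccgggcgcgcggg
miR-6726-3p: cUCGCCCUgucucccgcuag
miR-6777-3p: uCCACUCUccuggcccccag
miR-6881-3p: aUCCUCUUucguccuucccacu
miR-6784-3p: uCUCACCCcaacucugccccag
miR-6797-3p: uGCAUGACccuucccuccccac
miR-6895-5p: cAGGGCCAggcacagaguaag
miR-6775-3p: aGGCCCUGuccucugccccag
miR-6894-3p: uUGCCUGCccucuuccuccag

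No seed was shared among the printed arms. Across all matched rows, 3 names had the seed UGGGGUG (miR-6737-5p, miR-6812-5p and miR-6819-5p) and 12 other seeds were shared by a pair of names each. The seed of miR-6784-3p, CUCACCC, was also that of miR-6862-3p. Rows for miR-6770, miR-6859 and miR-6862 stand for several loci and may pool their reads.

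Against GENCODE release 29 on the same build, 142 of 143 matched hairpins lay in an intron. In 136 of them (95.1%) the last base of the hairpin was the last base of an intron, compared with 50 of 926 hairpins (5.40%) of the other names in the tables. The 5′ end told the designs apart. Both hairpin ends lay within 10 nt of the intron ends in 12 hairpins (8.39%, against 1.94% of the other hairpins), and 7 of the 12 matched the intron base for base. The shortest annotated intron that holds each hairpin ran from 74 to 9210 nt with a median of 263.5 nt, and 56 introns were at most 200 nt long. The working description of the series as short-intron miRNAs therefore held for part of it, while the acceptor end was shared by nearly all. MIR6852, in an exon of TLN1, was the 1 hairpin outside an intron. Counting it, 37 of the 143 hairpins overlapped an annotated exon of some transcript on the same strand.

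The mature arms carried the same marks. The last 2 bases were AG in 107 of 140 matched 3p arms (76.4%), against 11.2% of the other 3p names, and 103 of 134 3p arms of intronic hairpins ended on the last intron base itself. C and U made up a median 72.7% of a 3p arm in the series and 54.5% in other names. The 5p arms were rich in G, with a median of 50.0% against 27.3%. Donor GU was rarer: 11 of 125 5p arms (8.80%) began with it, against 5.05% of other 5p names, and 4 of the 10 matched 5p arms of whole-intron hairpins began on the first intron base.

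**Figure D1:**
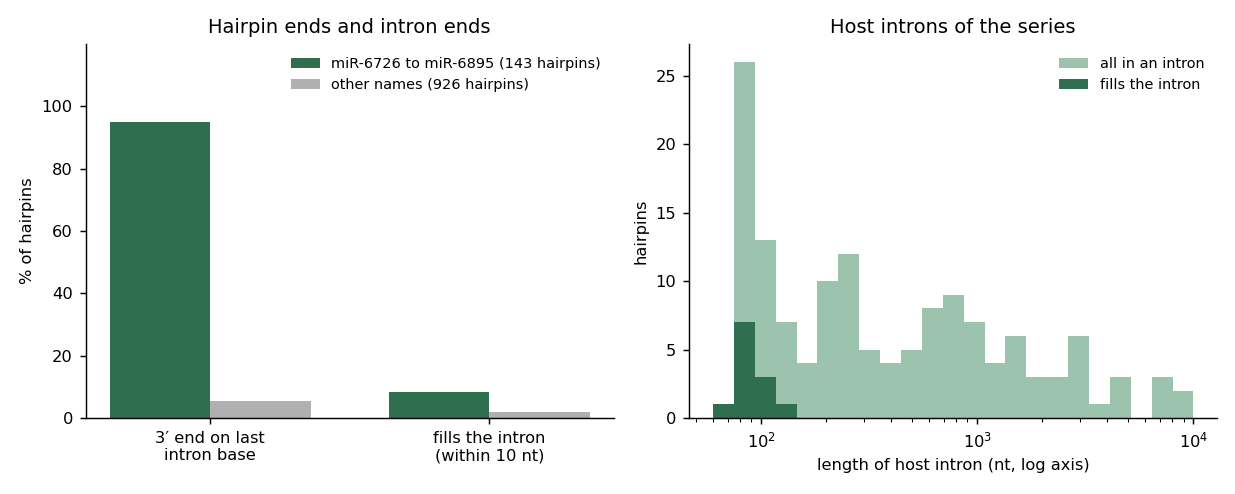
Left, percent of hairpins whose 3′ end is the last base of an intron and percent that fill their intron within 10 nt at both ends, for the 143 hairpins of the series and 926 other hairpins; right, number of series hairpins by host intron length on a log axis, with whole-intron hairpins in dark green. The acceptor end was shared by 95.1% of the series, whereas introns ran from 74 to 9210 nt and the 12 whole-intron hairpins sat among the shortest.

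Read depth limits what can be said of single members. Libraries held 824987 to 4498886 miRNA reads, fewest with the deletion (824987 to 1353117), so the 3 reads that a count of 0 leaves possible corresponded to 0.755 to 3.10 CPM, counts per 1000000 reads of the TMM-scaled library size. RPM below are reads per 1000000 miRNA reads of a library, without that scaling. Replicates of every group differed by more than sampling noise. Of 6 colon and 5 HEK293T markers listed for the check, miR-31-5p was higher in HCT116 (38412 to 54993 RPM, against 5022 to 6213), and miR-10a-5p was higher in HEK293T (54264 to 76639 against 6328 to 18482). The colon markers miR-192-5p, miR-194-5p and miR-215-5p went against the list, with 132 to 201, 235 to 321 and 0.986 to 6.65 RPM in HCT116 and higher values in HEK293T. Of the other colon markers, miR-200c-3p was higher in HCT116 (38.9 to 73.2 RPM against 17.1 to 35.9) and miR-141-3p overlapped. HEK293T had more miR-196a-5p, and miR-18b-5p overlapped. The kidney-line markers miR-20b-5p and miR-363-3p were at or near 0 in both lines. Of 6 markers of other tissues, the blood miRNA miR-142-3p reached 419 RPM in HCT116 and the neuronal miR-124-3p 384 in HEK293T, and the others stayed at or under 17. The part of other cells in any result was not tested.

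The series was scarce. All 306 rows together had 6962 reads, 5150 in HCT116 and 1812 in HEK293T, with a median of 10 reads per row over all libraries. In 150 rows the total was 1 to 9 reads, and 33 rows had at least 10 reads in at least 2 libraries (14 5p, 18 3p and miR-6844), 30 of them within HCT116 and 8 within HEK293T. These 33 held 52.4% of the reads, and the 12 rows with most reads held 31.1%. For 2 of the 33 the second-highest count was 10, and for 3 rows left out it was 9.

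The whole-intron hairpins stood out in reads. Their 24 rows (7.84% of the series) held 25.2% of its reads and 11 of the 33 rows described. The 226 rows of 5′-tailed hairpins, with only the 3′ end within 10 nt of an intron end, held 57.3% of the reads and 18 described rows. Both names refer to position alone, and splicing and the use of DROSHA were not tested. The 11 came from introns of TRIM28 (miR-6807, 92 nt), ZYX (miR-6892, 115 nt), JAG2 (miR-6765, 87 nt), PIM3 (miR-6821, 74 nt), PLEKHJ1 (miR-6789, 94 nt), HLA-B (miR-6891, 93 nt) and PFDN6 (miR-6834, 81 nt). ZYX encodes the focal adhesion protein zyxin and PIM3 a serine/threonine kinase. Long introns were represented too: miR-6775-3p comes from an SLC7A5 intron of 1906 nt and miR-6799-3p from an AP2A1 intron of 9210 nt.

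Summed over the series, RPM were higher with the deletion than with WT in both lines, but the direction depended on the scale. HCT116 WT libraries held 339 and 244 RPM of series reads, deletion libraries 365 and 406, and AA libraries 258 and 273. HEK293T libraries held 158 and 127 with WT, 199 and 213 with the deletion, and 105 and 99.3 with AA. The deletion libraries lay above their WT libraries in each line, AA lay below WT in HEK293T and within the WT range in HCT116. The group means ± SD (n = 2) were 385 ± 28.9 against 292 ± 67.6 in HCT116, a ratio of 1.32, and 206 ± 9.65 against 142 ± 21.5 in HEK293T, a ratio of 1.45. For AA the ratios were 0.910 in HCT116 and 0.718 in HEK293T. The exact permutation p (two-sided) was 0.333 for the deletion in each line and for AA in HEK293T, the smallest that 2 against 2 libraries allow, and 1.000 for AA in HCT116.

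Relative to the 30 spike-in RNAs the same sums were lower with both forms. Per 1000 spike-in reads the series had 92.9 and 89.5 reads in HCT116 WT, 23.2 and 26.3 with the deletion and 54.0 and 56.2 with AA. In HEK293T there were 13.0 and 10.3 reads with WT, 5.80 and 5.80 with the deletion, and 6.19 and 4.39 with AA. No library with either form overlapped WT on this scale, and the ratios to WT were 0.271 and 0.604 in HCT116 and 0.497 and 0.454 in HEK293T for the deletion and AA (exact permutation p = 0.333 each). With the deletion, all miRNA reads together were lower still relative to the spike-ins than the series was. With TMM-scaled library sizes, which set the typical tested miRNA to no change, the ratio for the deletion was 0.922 in HCT116, with overlapping libraries, and 1.34 in HEK293T. The amount of spike-in added per library was not given in the sources used here.

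**Figure D2:**
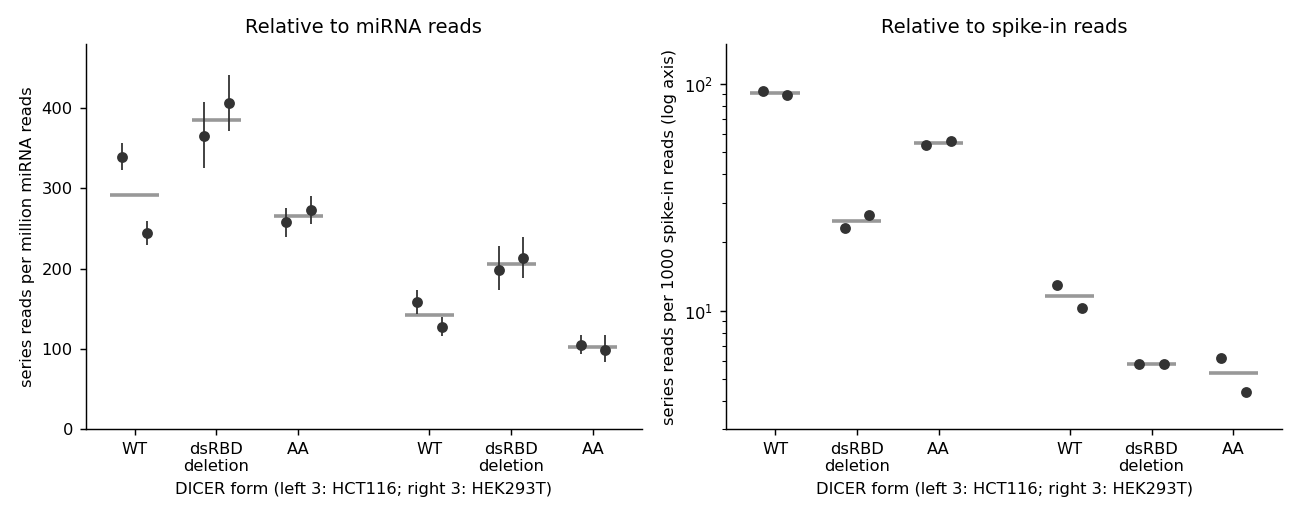
Series RPM (left, with exact Poisson 95% intervals) and per 1000 spike-in reads (right, log axis), with a point for each library and a bar at the group mean. Deletion libraries lay above WT on the left (365 and 406 against 339 and 244 in HCT116) and below WT on the right (23.2 and 26.3 against 92.9 and 89.5).

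Arm use of the pooled series differed between the lines and shifted with the deletion in HCT116. The 5p arms held 45.0% and 47.1% of the 5p and 3p reads in HCT116 WT (Wilson 95% intervals 42.4 to 47.6 and 43.9 to 50.3), 67.9% and 69.0% with the deletion (62.4 to 73.0 and 65.0 to 72.8), and 48.3% and 51.5% with AA. In HEK293T they held 30.3% and 32.7% with WT, 29.5% and 23.2% with the deletion, and 30.8% and 28.8% with AA. In HCT116 the deletion libraries stood well above the other 4, by 22.5 percentage points over WT (SD 0.786 and 1.5, n = 2 each), and in HEK293T the deletion mean differed from WT by −5.15 points, with replicate 2 the lowest. The exact permutation p was 0.333 for both, the smallest possible. AA lay 3.91 points above WT in HCT116, without overlap (exact permutation p = 0.333), and overlapped WT in HEK293T. These and the following intervals cover counting error only, since reads without molecular identifiers are not independent molecules.

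Relative to all miRNA reads, 5p arms were higher with the deletion in HCT116, while 3p arms overlapped WT. Series 5p reads were 124 ± 24.5 with WT and 257 ± 22.8 RPM with the deletion, without overlap (exact permutation p = 0.333), and series 3p reads 147 ± 37.5 and 118 ± 6.18 (SD, n = 2, exact permutation p = 0.667). Other miRNA names that were no more abundant than the series' highest row shifted the same way in HCT116, from 45.3% and 45.2% 5p with WT to 56.1% and 56.8% with the deletion. In HEK293T such names held 42.7% and 45.2% with WT and 47.3% and 45.7% with the deletion, the opposite direction to the series. This set was chosen after the member counts were seen, and its difference from the series was not tested. Without both arms of miR-6765 the HCT116 shift was 19.6 points, without the whole-intron hairpins 17.3, and without the 33 described rows 17.8. Relative to the spike-ins, 5p reads of the series stood at 42.4% of their WT level in HCT116 and 3p reads at 16.6%. In HEK293T 5p reads stood at 41.4% and 3p reads at 52.9%.

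The share of series reads from whole-intron hairpins was higher with the deletion in both lines, which share no library. It was 22.7% and 24.3% in HCT116 WT (Wilson 95% intervals 20.7 to 24.9 and 21.7 to 27.0), 41.9% and 40.3% with the deletion (36.4 to 47.5 and 36.2 to 44.4), and 24.1% and 27.0% with AA. In HEK293T it was 15.2% and 15.7% with WT (12.2 to 18.9 and 12.6 to 19.3), 30.3% and 28.4% with the deletion (24.5 to 36.8 and 23.2 to 34.1), and 19.0% and 18.9% with AA. Deletion libraries lay above all others of their line, by 17.6 points over WT in HCT116 and 13.9 in HEK293T (exact permutation p = 0.333 in each line, the smallest possible). This split and its limit of 10 nt were chosen after the member counts were seen. With the 7 base-exact hairpins alone the differences were 18.7 and 14.2 points, and without miR-6807, the whole-intron hairpin with most reads, 11.4 and 7.25.

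In HCT116 the higher share was mostly a matter of 5p arms. Whole-intron hairpins made up 30.1% ± 1.18 of series 5p reads with WT and 49.0% ± 1.05 with the deletion, whereas for 3p reads the values were 21.2% ± 2.78 and 27.1% ± 6.81 with overlapping libraries. In HEK293T both arms showed it, 18.5% ± 1.74 against 43.4% ± 5.74 for 5p and 14.5% ± 1.38 against 25.5% ± 2.69 for 3p (SD, n = 2). Per 1000 spike-in reads, whole-intron 5p arms stood at 69.0% of WT with the deletion in HCT116 and 5′-tailed 5p arms at 28.9%. In HEK293T these were 95.7% and 28.6%, and for 3p arms 93.8% of WT for whole-intron and 51.5% for 5′-tailed hairpins. The HEK293T whole-intron values overlapped WT for both arms, and the 5′-tailed ones did not. With AA the differences in share were 2.05 points in HCT116, with overlapping libraries, and 3.48 in HEK293T, which was 0.547 without miR-6807.

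**Figure D3:**
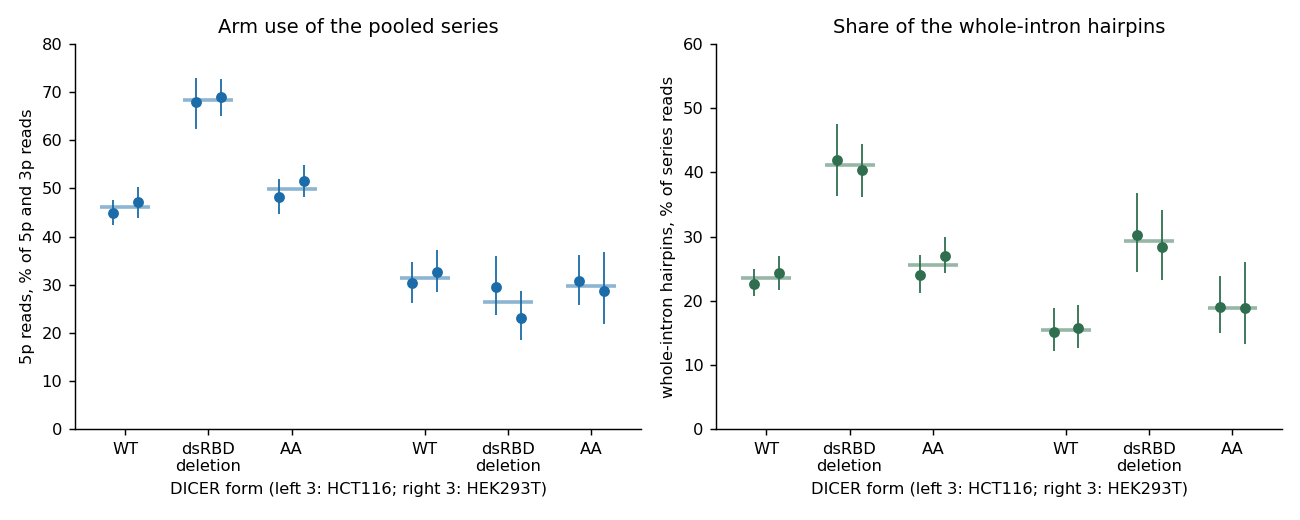
Percent of series 5p and 3p reads that are 5p (left) and percent of series reads from the 12 whole-intron hairpins (right), with a point and Wilson 95% interval for each library and a bar at the group mean. With the deletion the 5p share was 67.9% and 69.0% in HCT116 and 29.5% and 23.2% in HEK293T, while the whole-intron share was above WT in both lines.

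Within each line, edgeR's quasi-likelihood F test was run on TMM-scaled counts of all names, with Benjamini-Hochberg adjustment over all names tested and a threshold of 0.05. Levels of single members are in CPM, and log2 fold changes are given ± SE. In HCT116, 29 of 294 members passed the filter on low counts. With the deletion 5 of them rose, where 28.1% of all 795 tested names did, and 8 fell, where 34.1% of all tested names did; the members' shares were below both backgrounds, so neither count is a result about the series. Of the 5 that rose, 4 passed the filter in every group. Of the 8 that fell, 1 passed it in every group and 5 passed it with WT and not with the deletion. The other 2, miR-6784-3p and miR-6881-3p, passed through WT replicate 1 and AA replicate 2 and no deletion library. Counts over the tested members therefore describe only these rows.

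The members that rose were led by both arms of miR-6807. For miR-6807-5p the HCT116 tables held 32 and 28 reads with WT, 23 and 58 with the deletion and 31 and 44 with AA. Scaled to depth, the deletion libraries (23.7 and 33.6 CPM) lay above WT (8.05 and 8.43 CPM), a log2 fold change of 1.83 ± 0.29 (edgeR adjusted p = 0.00025). Its partner miR-6807-3p had 29 and 21 reads with WT, 18 and 23 with the deletion and 14 and 19 with AA, which was 18.6 and 13.3 CPM against 7.30 and 6.32 (1.18 ± 0.35, adjusted p = 0.013). Both arms of the TRIM28 intron were higher with the deletion, with no overlap with WT. The 3p call was lost in DESeq2 (1.15), without the filter (0.95), and without WT replicate 1 (1.16), WT replicate 2 (1.01) or deletion replicate 1 (0.82).

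Of the other members that rose, 2 were 5p arms of whole introns. The ZYX intron's miR-6892-5p had 44 and 32 reads with WT, 27 and 50 with the deletion and 41 and 41 with AA, or 27.9 and 29 CPM with the deletion against 11.1 and 9.63 (log2 1.45 ± 0.25, edgeR adjusted p = 0.00048). Reads of the PIM3 intron's miR-6821-5p were 30 and 20 with WT, 9 and 34 with the deletion and 20 and 22 with AA, and its rise of 1.17 ± 0.39 (adjusted p = 0.022) was 0.35 and not called without deletion replicate 2. That call was also lost in DESeq2 (1.09), without the filter (0.96), and without WT replicate 1 (1.22), WT replicate 2 (0.96) or AA replicate 1 (1.06). The fifth, miR-6895-5p, comes from a 5′-tailed hairpin in an intron of KDM5C, which encodes a histone demethylase, and had 8 and 7 reads with WT, 5 and 16 with the deletion and 14 and 9 with AA (1.87 ± 0.54, adjusted p = 0.012). It passed the filter through the deletion group alone, where it is high, so the filter favoured a rise and the call is no support. Its call was lost without deletion replicate 2 (1.22) or WT replicate 1 (1.71). On the spike-in scale none of the 5 rose: the values were 0.07 for miR-6807-5p, −0.57 for miR-6807-3p, −0.30 for miR-6892-5p, −0.57 for miR-6821-5p and 0.14 for miR-6895-5p.

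Of the 8 members that fell with the deletion in HCT116, 6 were 3p arms, 6 of 14 tested, where 48.2% of all tested 3p names fell. The most abundant of the 3p arms was miR-6765-3p, with 67 and 57 reads in WT, 2 and 1 with the deletion and 5 and 8 with AA. The WT libraries stood at 16.9 and 17.2 CPM and the deletion libraries at 2.06 and 0.58, a log2 fold change of −3.87 ± 0.55 (edgeR adjusted p = 0.00013); from the summed counts it was 15.3-fold lower, with a counting interval of 5.1 to 75. This row passed the filter through WT alone, where it is high, so the filter favoured a fall and the call is no support. Its 5p partner miR-6765-5p had 30 and 13 reads with WT, 17 and 18 with the deletion and 7 and 20 with AA. At 17.5 and 10.4 CPM against 7.55 and 3.91, the 5p arm of the same intron was not called (1.19 ± 0.50, adjusted p = 0.060), although it was with library totals (1.71) and without WT replicate 1 (1.63).

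For 2 of the 3p arms no read was found with the deletion. In HCT116, miR-6747-3p had 26 and 17 reads with WT, 0 and 0 with the deletion, and 5 and 5 with AA (edgeR adjusted p = 0.0015 for the deletion). This row passed the filter through WT alone, so its call is no support. Against a limit of 3 reads over the deletion group it was 5.29-fold lower, and its counting interval began at 4.12-fold. For miR-6881-3p, from the 3′ end of a SEMA7A intron, there were 20 and 12 reads with WT, 0 and 0 with the deletion and 7 and 13 with AA. Against the same limit it was 3.94-fold lower with the deletion, with a counting interval from 3.02-fold (edgeR adjusted p = 0.0044). This row passed the filter through WT replicate 1 and AA replicate 2 alone, so the filter favoured a fall and the call is no support. SEMA7A encodes a membrane-anchored semaphorin.

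The remaining 3 3p arms that fell came from 5′-tailed hairpins, as did miR-6881-3p. Of these 3, miR-6797-3p and miR-6777-3p passed the filter with WT and AA and not with the deletion. For miR-6784-3p only WT replicate 1 and AA replicate 2 passed it. The filter therefore favoured all 3 falls, and their calls are no support. The RPS19 intron's miR-6797-3p had 25 and 17 reads with WT, 1 and 0 with the deletion and 15 and 26 with AA (log2 −3.78 ± 0.95 for the deletion, edgeR adjusted p = 0.0054). From an intron of SREBF1, which encodes a regulator of lipid synthesis, miR-6777-3p had 37 and 14 reads with WT, 0 and 3 with the deletion and 11 and 23 with AA (−2.59 ± 0.88, adjusted p = 0.024). From an intron of PLCD3, a phospholipase C gene, miR-6784-3p had 14 and 7 reads with WT, 0 and 1 with the deletion and 9 and 11 with AA (−2.81 ± 1.04, adjusted p = 0.037). Summed counts with the deletion were 1 to 3 reads for these 3 rows, and the ratios were 15.5-fold (counting interval 2.64 to 627), 6.28-fold (2.03 to 31.4) and 7.75-fold (1.25 to 321) lower. The call of miR-6784-3p was lost with library totals (−2.31), in DESeq2 (−2.97), with the replicate block (−2.76), and without deletion replicate 1 (−2.35), deletion replicate 2 (−6.10) or AA replicate 1 (−2.90). That of miR-6777-3p was lost with library totals (−2.08), without WT replicate 1 (−2.01) and without deletion replicate 1 (−2.10), and that of miR-6797-3p without deletion replicate 2 (−2.52).

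Of the remaining 2 that fell, neither a 3p arm, 1 is described here. The row with most reads of the series, miR-6844, has no arm suffix. In HCT116 it had 109 and 67 reads with WT, 6 and 13 with the deletion and 71 and 55 with AA, which was 6.19 and 7.54 CPM with the deletion against 27.4 and 20.2 (log2 −1.76 ± 0.36, edgeR adjusted p = 0.0015). AA libraries at 23.4 and 16.1 CPM overlapped WT.

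By arm, the calls followed those over all names, and the filter shaped which rows were tested. Of 14 5p arms tested in HCT116, 4 rose and 1 fell with the deletion, where 32.2% and 25.4% of all 339 5p names tested did. Of 14 3p arms, 1 rose and 6 fell, where 18.6% and 48.2% of all 311 3p names did, so the shares of 5p arms that rose and of 3p arms that fell were near or under those of other names. The median log2 fold change was 0.74 for the 5p arms, against 0.30 over all 5p names. For the 3p arms it was −2.25, or −1.52 with the 3 rows that had no deletion read set at their bounds, against −0.91 over all 3p names.

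The other 3p arms of whole introns had few reads and no call. In HCT116, miR-6789-3p had 17 and 14 reads with WT, 0 and 3 with the deletion and 11 and 8 with AA (−1.91 ± 0.80 for the deletion, edgeR adjusted p = 0.060). For miR-6834-3p there were 8 and 2 reads with WT, 0 and 0 with the deletion and 13 and 12 with AA (adjusted p = 0.070). In the other direction, miR-6821-3p had 10 and 5 reads with WT, 2 and 6 with the deletion and 11 and 18 with AA, or 2.01 and 2.77 CPM on average with WT and the deletion (0.52 ± 0.66, adjusted p = 0.505). Its values overlapped between WT and the deletion. Among 5′-tailed 3p arms, miR-6805-3p, from an intron of the ribosomal protein gene RPL28, had 21 and 14 reads with WT, 5 and 25 with the deletion and 15 and 14 with AA (1.16 ± 0.47, edgeR adjusted p = 0.052). From an intron of ACAP3, miR-6726-3p had 17 and 5 reads with WT, 7 and 5 with the deletion and 14 and 22 with AA (0.61 ± 0.68, adjusted p = 0.444).

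Among 5p arms without a call, the PLEKHJ1 intron's miR-6789-5p had 34 and 15 reads in HCT116 WT, 8 and 10 with the deletion and 23 and 39 with AA. Its log2 fold change with the deletion was 0.02 ± 0.49 (edgeR adjusted p = 0.967). Reads of miR-6805-5p were 26 and 9 with WT, 5 and 10 with the deletion and 17 and 25 with AA (0.23 ± 0.54, adjusted p = 0.718).

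**Figure D4:**
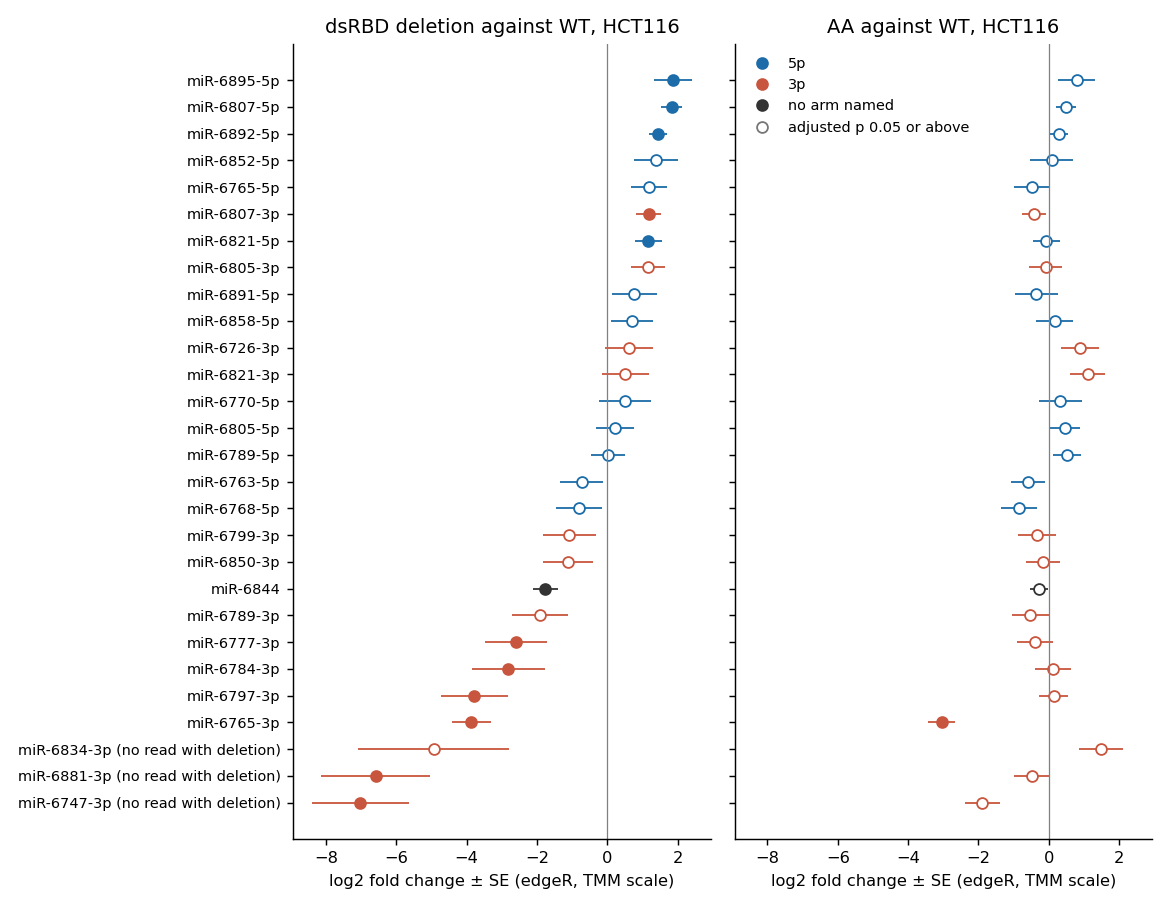
Log2 fold change ± SE (edgeR, TMM scale) of 28 of the 29 series rows tested in HCT116 for the deletion (left) and AA (right) against WT, with 5p arms in blue, 3p arms in red and rows past the adjusted threshold filled. The 6 filled 3p points with a negative value on the left include 2 of the 3 rows with no read with the deletion, whose fitted values are not bounds; with AA, miR-6765-3p (−3.05) is the filled point.

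AA left most tested members without a call in HCT116. No member rose, where 1.26% of all tested names did, and 2 of 29 fell, where 6.16% did, a count near the background (4 members had an unadjusted p under 0.05 in edgeR, and DESeq2 called 0 higher and 1 lower). The JAG2 intron's miR-6765-3p, at 1.65 and 2.35 CPM against 16.9 and 17.2, fell by 3.05 ± 0.38 on the log2 scale (edgeR adjusted p = 0.0011). This row passed the filter through WT alone, so that call is no support. The AA and deletion comparisons share the WT libraries. Of the members without a read under the deletion, miR-6881-3p stood at 3.06 CPM with AA against 4.32 (−0.49 ± 0.49, adjusted p = 0.650) and miR-6747-3p at 1.56 against 5.83 (−1.89 ± 0.50, adjusted p = 0.054). The latter was called lower without either deletion library (−1.89), with 4 libraries (−1.89) and without the filter (−1.87).

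In HEK293T depth allowed tests of 6 of 240 members. With the deletion 5 of the 6 rose, where 35.9% of all 626 tested names did, and 0 fell, where 39.6% did. But all 5 passed the filter through the deletion group and not through WT, so the filter favoured a rise. Their count therefore says nothing of the series, and the single calls are no support. At an unadjusted p under 0.05, edgeR had 5 members in either direction, and DESeq2 called 0 lower. Of the 5 that rose, miR-6807-3p changed most, with 4 and 5 reads in WT, 17 and 17 with the deletion and 13 and 6 with AA. It stood at 15 and 13 CPM with the deletion against 1.42 and 1.46 (log2 3.22 ± 0.43, edgeR adjusted p = 4.7e-05), and was still higher on the spike-in scale (1.79). Its partner miR-6807-5p had 10 and 14 reads with WT, 8 and 16 with the deletion and 13 and 2 with AA (1.34 ± 0.49, adjusted p = 0.029), a call lost in DESeq2 (1.35), without the filter (1.02), and without WT replicate 1 (1.21), WT replicate 2 (1.31), deletion replicate 2 (0.76) or AA replicate 1 (1.27).

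The other 3 were 3p arms of 5′-tailed hairpins. SLC7A5 encodes a transporter of large neutral amino acids, and miR-6775-3p from its intron had 14 and 13 reads in HEK293T WT, 17 and 16 with the deletion and 16 and 5 with AA (log2 1.63 ± 0.40 for the deletion, edgeR adjusted p = 0.0032). From an intron of ACAP3, miR-6726-3p had 10 and 14 reads with WT, 7 and 17 with the deletion and 7 and 4 with AA (1.34 ± 0.45, adjusted p = 0.018). From an 88-nt intron of KDM5C, miR-6894-3p had 2 and 5 reads with WT, 6 and 7 with the deletion and 4 and 0 with AA (2.20 ± 0.67, adjusted p = 0.011). The deletion libraries were shallower, and with spike-in size factors the values were 0.19, −0.11 and 0.78. The call of miR-6775-3p was lost without WT replicate 2 (1.30), and that of miR-6894-3p in DESeq2 (2.29) and without deletion replicate 1 (2.21) or 2 (2.08). The call of miR-6726-3p was lost in DESeq2 (1.34), without the filter (1.01) and with any library but deletion replicate 1 left out, lowest without deletion replicate 2 (0.57). The sixth tested member was miR-6820-3p from POLR2F, an RNA polymerase subunit gene. It had 22 and 11 reads with WT, 1 and 4 with the deletion and 9 and 10 with AA (−1.37 ± 0.77, edgeR adjusted p = 0.128). The filter also left out rows that were lower with the deletion. In HEK293T miR-6747-3p, which fell in HCT116, had 33 and 16 reads with WT and 2 and 1 with the deletion. Without the filter 4 members were called higher and 5 lower.

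With AA in HEK293T, miR-6807-3p was again higher than WT, at 4.82 and 4.30 CPM against 1.42 and 1.46 (log2 1.64 ± 0.48, edgeR adjusted p = 0.034). It was 1 of 6 members tested, where 6.23% of all names rose and 15.2% fell, and 0 members fell (1 member had an unadjusted p under 0.05, and DESeq2 called 0). That call was lost when any 1 of the 6 libraries was left out (1.49 to 1.77), with the replicate block (1.62), in DESeq2 (1.76), with spike-in factors (1.20) and without the filter (1.54).

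The effect of the deletion differed between the lines for 6 of 28 members tested over all 12 libraries, each with a higher log2 fold change in HEK293T. Of all 844 names tested 22.4% were higher and 12.4% lower, so the 6 are about the background share, and their count is not a result about the series. The HEK293T minus HCT116 differences were 6.02 ± 0.97 for miR-6765-3p (edgeR adjusted p = 3.2e-05), 7.31 ± 2.06 for miR-6894-3p (0.0079), 5.99 ± 2.13 for miR-6799-3p (0.033), 3.55 ± 0.82 for miR-6844 (0.0016), 3.03 ± 1.13 for miR-6803-3p (0.041) and 2.36 ± 0.64 for miR-6807-3p (0.0054). The reads behind them were few in HEK293T. For miR-6765-3p they were 5 and 8 with WT and 3 and 16 with the deletion, for miR-6799-3p 0 and 0 against 3 and 0, and for miR-6844 3 and 6 against 4 and 6. For miR-6803-3p, in a 79-nt PPP6R1 intron, HEK293T had 11 and 8 reads with WT and 5 and 4 with the deletion, and HCT116 had 11 and 20 against 1 and 1. For miR-6894-3p HCT116 had 6 and 5 against 0 and 0. This row passed the filter on low counts through the HEK293T deletion libraries alone. The libraries that passed for miR-6765-3p were those of HCT116 WT and HEK293T deletion replicate 2. Those that passed for miR-6799-3p were HCT116 WT replicate 1 and AA replicate 1. The filter thus favoured a higher value in HEK293T for these rows, and their calls are no support. The call of miR-6803-3p was lost under 12 alternatives (2.19 to 3.43), that of miR-6894-3p without HCT116 deletion replicate 2 (6.95), and that of miR-6799-3p with library totals (5.35) and when 1 of 5 libraries was left out, lowest without HEK293T deletion replicate 1 (1.26). No member differed between lines in its AA effect, where 0.948% of names were higher and 2.96% lower (2 members had an unadjusted p under 0.05, and edgeR with DESeq2 size factors called 1).

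Arm use within a hairpin was tested in edgeR as an interaction between arm and group, each library being its own block. Hairpins entered if at least 2 libraries had 10 or more reads on each arm. In HCT116 this left 5 hairpins, of which 1 moved with the deletion, toward 5p. Of all 229 tested hairpins 46.7% moved toward 5p and 16.2% toward 3p. The 1 was miR-6765, whose 5p share was 25.7% with WT (43 of its reads 5p and 124 3p; Wilson 95% interval 19.7 to 32.9), 92.1% with the deletion (35 and 3; 79.2 to 97.3) and 67.5% with AA (27 and 13; 52.0 to 79.9). The log2 ratio of 5p to 3p changed by 5.05 ± 0.73 with the deletion (adjusted p = 2.5e-06) and by 2.57 ± 0.60 with AA (adjusted p = 0.0042). By summed reads, the JAG2 intron gave mostly its 3p arm with WT and mostly its 5p arm with both other forms. With AA, replicate 1 held 7 5p and 5 3p reads. The 3p arm reached 10 reads in the WT libraries alone (67 and 57, against 2 and 1 with the deletion and 5 and 8 with AA). The hairpin thus entered the test through the group where that arm is high, so these calls are no support. For AA the backgrounds were 8.73% toward 5p and 4.80% toward 3p, and the AA call was lost without WT replicate 2 (2.18) or AA replicate 2 (2.03).

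The other 4 hairpins did not pass the test in HCT116. The 5p share of miR-6789 was 61.2% with WT, 85.7% with the deletion and 76.5% with AA (log2 ratio 1.93 ± 0.97 for the deletion, edgeR adjusted p = 0.089). That of miR-6807 was 54.5%, 66.4% and 69.4%, that of miR-6821 76.9%, 84.3% and 59.2%, and that of miR-6805 50.0%, 33.3% and 59.2%. Of these 4, miR-6805, the 5′-tailed hairpin, had a lower 5p share with the deletion (−0.93 ± 0.64, adjusted p = 0.215).

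In HEK293T miR-6807 and miR-6820 could be tested. The TRIM28 intron was 72.7% 5p with WT (24 and 9 reads; Wilson 95% interval 55.8 to 84.9), 41.4% with the deletion (24 and 34; 29.6 to 54.2) and 44.1% with AA (15 and 19; 28.9 to 60.5). The change with the deletion was −1.89 ± 0.80 (edgeR adjusted p = 0.048), where 27.8% of 180 hairpins moved toward 3p and 30% toward 5p, and the call was lost when any 1 of the 6 libraries was left out (−2.46 to −1.47). With AA it was −1.75 ± 0.88 (adjusted p = 0.228), and 5% and 5.56% of hairpins moved toward 5p and 3p. The 3p arm of miR-6807 reached 10 reads only outside WT (4 and 5 reads with WT), so entry to the test favoured a move toward 3p. For miR-6820, whose 5p arm had 14 and 15 reads with WT, 0 and 1 with the deletion and 8 and 3 with AA, the 5p share was 46.8% with WT, 16.7% with the deletion (1 and 5 reads) and 36.7% with AA, and was not called. Reads of miR-6765 in HEK293T, 0 of 13 5p with WT and 3 of 22 with the deletion, were too few for the test.

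**Figure D5:**
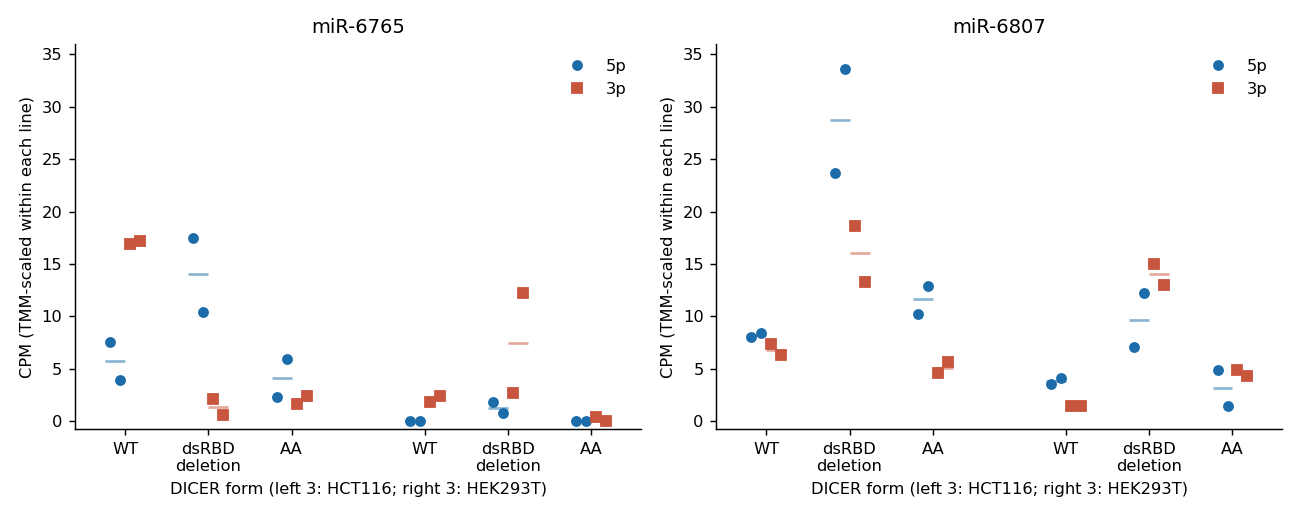
CPM (TMM-scaled within each line) of the 5p arm (blue circles) and 3p arm (red squares) of miR-6765 and miR-6807 in each library, with bars at group means. In HCT116 the 3p arm of miR-6765 dropped from 16.9 and 17.2 to 2.06 and 0.58 with the deletion while its 5p arm did not, whereas both arms of miR-6807 were higher with the deletion in both lines.

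Mirtrons annotated earlier, in names from miR-877 to miR-1238, gave a set for comparison. In HCT116, 15 of their arms were tested. With the deletion 2 rose and 6 fell, where 28.1% and 34.1% of all tested names did. The median log2 fold change was −0.61, against 0.02 for the 29 series rows and −0.01 for all names. With AA 5 fell, where 6.16% of all names did (median −0.86, against −0.08 and −0.03). In HEK293T, of 4 tested, 1 rose with the deletion, where 35.9% of all names did, and 1 fell with AA, where 15.2% did. The difference between the lists was not tested.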

How the data were processed

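AQ-seq counts of 12 libraries were analysed. The deposited values are raw counts, 1 table per library, for each miRNA name and 30 spike-in RNAs. The submitters' processing notes name cutadapt, BWA and bedtools and the builds hg38 and mm10. Their versions and roles, the miRNA annotation and the treatment of reads that match several names were not given in the sources used here. Spike-in reads were kept out of library sizes.

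Members and lists were chosen with earlier results of these data known. In the line where a row was tested, values per library are given for the 12 described rows (at least 10 reads in at least 2 libraries) with most reads, up to 5 called rises and 5 falls in each comparison, and both arms of up to 6 hairpins with at least 10 reads on each arm in 2 libraries. Other rows were named because a test between the lines or the text singled them out.

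Tests used edgeR 4.0.16 in R 4.3.3: TMM, filterByExpr by group (minimum count 10), and the quasi-likelihood F test over the 6 libraries of a line (3 residual degrees of freedom). The model was tested on simulated data. SEs were taken from the fold change and F (absolute log2 fold change over root F). Pooled values used exact permutation tests and Wilson or exact Poisson 95% intervals (scipy 1.17.1). Alternatives were DESeq2 1.42.0, its size factors in edgeR, library totals, spike-in size factors, other filters, 4 libraries, the replicate block, other read minimums per arm, and leaving out each library. Subsets of the pooled shares were added after seeing the data. Hairpins were placed on the shortest GENCODE release 29 intron that holds them. Of the rows this rule names, 1 that fell in HCT116 is counted but not reported here.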

Additional observations from a re-analysis of the deposited data

Results flagged for a closer look

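The deletion effect differed between the lines by the test of the difference itself for 6 members, as HEK293T minus HCT116 on the log2 scale (edgeR): 6.02 for miR-6765-3p, 5.99 for miR-6799-3p, 3.03 for miR-6803-3p, 2.36 for miR-6807-3p, 3.55 for miR-6844 and 7.31 for miR-6894-3p. These are 6 of 28 members tested, where 22.4% of all 844 names were called higher, so the count is no result about the series. Of them, miR-6799-3p and miR-6894-3p rest on groups without a read, so their fitted sizes depend on the prior count. HEK293T deletion replicate 2 held 16 of the 19 deletion reads of miR-6765-3p in that line. For miR-6765-3p, miR-6799-3p and miR-6894-3p the filter on low counts favoured the difference, so these calls are no support.

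The 5p share of the pooled series moved in opposite directions with the deletion, by 22.5 percentage points in HCT116 and by −5.15 in HEK293T, with no overlap with WT in either line. The difference between the lines was not tested. Leaving out 1 library gave 21.4 to 23.5 in HCT116 and −8.27 to −2.03 in HEK293T.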

How the results depend on the processing

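Depth limits single members most: 150 of 306 rows had under 10 reads in all libraries together. TMM sets the typical miRNA to no change; the median over all names for the HCT116 deletion moved from −0.01 to 0.52 with library totals and −1.78 with spike-in size factors. Members called higher and lower with the deletion in HCT116, 5 and 8 in the report, were 8 and 6 with library totals, 0 and 16 with spike-in factors, 3 and 15 without the filter, 4 and 3 at a minimum count of 30, 5 and 5 with 4 libraries, 3 and 7 in DESeq2, and 3 to 5 and 6 to 8 with 1 library left out. With AA in HCT116, 2 lower became 1 with library totals or DESeq2, 4 with spike-in factors and 1 to 3 with 1 library left out. In HEK293T, 5 higher and 0 lower with the deletion were 1 and 1 with spike-in factors, 4 and 5 without the filter, 2 and 0 in DESeq2, and 1 to 6 and 0 to 3 with 1 library left out. With AA there, 1 higher became 0 with spike-in factors, without the filter, in DESeq2, with the replicate block and with each library left out; 0 lower became 1 without the filter or with 4 libraries, and 0 to 1 with 1 left out. A minimum count of 30 left no HEK293T member, and 20 reads per arm no HEK293T hairpin. The 6 members that differed between lines were 4 to 7 under the alternatives, and for AA 0 became 1 with DESeq2 size factors. Hairpins with changed arm use, 1 for each form in HCT116, were 1 to 2 and 0 to 1 with 1 library left out; in HEK293T 1 became 2 at 5 reads per arm and 0 with each library left out. Pooled ratios for the deletion turned to 0.271 (spike-in) and 0.922 (TMM) in HCT116 and 0.497 (spike-in) in HEK293T; for AA in HCT116 the ratio was 0.782 to 1.09 with 1 library left out, 1.09 without WT replicate 1. The whole-intron share with AA turned to −3.85 points in HCT116 and −0.745 in HEK293T over 3p reads alone. With spike-in factors the log2 fold changes with the deletion turned to −0.30 (miR-6892-5p), −0.57 (miR-6807-3p), −0.57 (miR-6821-5p), −1.68 (miR-6789-5p) and −1.47 (miR-6805-5p) in HCT116 and to −0.11 for miR-6807-5p and −0.11 for miR-6726-3p in HEK293T. The cause of these changes was not tested. Replicate numbers did not pair the libraries (correlations of same-numbered deviations −0.104 to 0.147). With the replicate block the deletion counts in HCT116 were 5 higher and 7 lower, with miR-6784-3p lost, and those in HEK293T 5 and 0.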
